A study of Mus musculus with 35 samples.

Results

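Arginine is drawn on by several enzymes at once in a macrophage. Nitric oxide synthase 2 turns it into nitric oxide and citrulline with the help of tetrahydrobiopterin, and argininosuccinate synthase and argininosuccinate lyase rebuild it from citrulline. Ornithine decarboxylase leads from ornithine to the polyamines, glycine amidinotransferase starts creatine synthesis from arginine and glycine, and arginine enters the cell through cationic amino acid transporters. Nitric oxide production after contact with bacterial lipopolysaccharide (LPS) and its decrease with glucocorticoids (GCs) are classical features of mouse macrophages.

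The 7 genes described here, Nos2, Ass1, Asl, Gch1, Slc7a2, Odc1 and Gatm, were chosen by symbol for these roles, with earlier results of these data known, and each matched 1 of the 47069 gene identifiers in the deposited expression values. RNA sequencing was performed on bone marrow-derived macrophages of C57BL/6 mice, grown in medium conditioned by L929 fibroblasts and treated for 24 h. Wild-type cultures and cultures labelled AMPKa1-/-, that is, without the catalytic α1 subunit of AMP-activated protein kinase, received vehicle (DMSO), dexamethasone at 100 nM (Dex, a synthetic GC), LPS at 100 ng/ml, both of these, DAMPs at 1 µg/ml (so named in the labels, with no composition given) or DAMPs with Dex. There were 3 libraries in each of the 12 groups but 2 for LPS in wild type (replicates 2 and 3), giving 17 wild-type libraries and 18 labelled AMPKa1-/-. The study gives its N as cultures from individual mice, and where replicates share more than the labels say, the p-values below measure only the spread between these libraries.

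Expression is given as FPKM (fragments scaled to the length of the gene and the size of the library), and library totals read from the smallest steps in those values were 15837203 to 31955298 fragments. A fold change below is a difference of means on the log2(FPKM + 1) scale with its standard error (SE), which understates changes of weakly expressed genes, and it was called when limma's p-value, adjusted by Benjamini-Hochberg over the 11354 genes whose FPKM averaged 1 or more, was under 0.05. Asl, Gch1, Slc7a2, Ass1, Odc1 and Gatm passed this filter with ease. Nos2 passed only through its LPS libraries.

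The treatments were visible in genes known to answer to them. Tsc22d3, which encodes the GC-induced protein GILZ, had 51.7 to 54.6 FPKM in the wild-type vehicle libraries and 667 to 736 FPKM with Dex. Il6, an inflammatory cytokine, had 489 and 524 FPKM in the wild-type LPS libraries and at most 6.84 FPKM with LPS + Dex. The genotype was not visible in the same way. Prkaa1, the gene for AMPKα1, had 15.9, 11.8 and 15.3 FPKM in the wild-type vehicle libraries and 14.8, 16.5 and 15.4 FPKM in the vehicle libraries labelled AMPKa1-/-, and it did not differ between genotypes in any treatment (limma, smallest adjusted p = 0.35, with Dex). The gene-level value does not show which part of the gene was deleted, so the label could not be checked with it, and AMPKa1-/- below names the libraries by that label.

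The 6 macrophage markers were present in every library, from Itgam at 9.12 FPKM or more to Lyz2 at 10344 FPKM or more, and they moved with treatment. In wild type Cd68 averaged 1522 FPKM with vehicle and 187 with LPS, Csf1r 577 and 228 FPKM, and Adgre1 1006 and 1903 FPKM, while with Dex Itgam averaged 11.5 FPKM against 63.5 with vehicle and Mertk 204 against 37.8 FPKM. Of the neutrophil markers, Ly6g, Mpo and Elane stayed below 1 FPKM everywhere, whereas Camp, a granule peptide gene, reached 133 FPKM with LPS. The summed level of the 6 neutrophil markers averaged 4.04 FPKM in wild-type vehicle, 123 in wild-type LPS and 40.0 in wild-type LPS + Dex libraries, and 9.08, 104 and 30.2 FPKM in those labelled AMPKa1-/-. With LPS nearly all of this sum was Camp, for Ngp and Ltf averaged 1.90 and 1.46 FPKM in wild-type vehicle libraries and 0 and 0.154 FPKM with LPS. Between the genotypes the sum averaged 1.03 FPKM in wild type and 8.80 in AMPKa1-/- with Dex, 1.49 and 9.12 with DAMPs, and 0.694 and 2.72 with DAMPs + Dex. The lymphocyte markers Cd3e, Cd3g, Cd79a and Ms4a1 stayed below 1 FPKM in all libraries, as did the dendritic cell, erythroid, and eosinophil or basophil markers. The 4 fibroblast markers, led by Col1a2 at up to 11.9 FPKM, summed to 1.32 to 24.4 FPKM in wild-type libraries and to 1.16 to 6.01 FPKM in those labelled AMPKa1-/-. The genotypes did not overlap in this sum with Dex (11.8 to 24.4 FPKM in wild type, 2.96 to 4.45 in AMPKa1-/-), LPS (9.71 to 9.90 and 3.31 to 5.62 FPKM) or DAMPs + Dex (9.29 to 18.3 and 1.98 to 4.36 FPKM). The part of these cells in the results below was not tested, and in bulk RNA a change in the number of cells and a change of RNA per cell cannot be told apart.

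**Figure D1:**
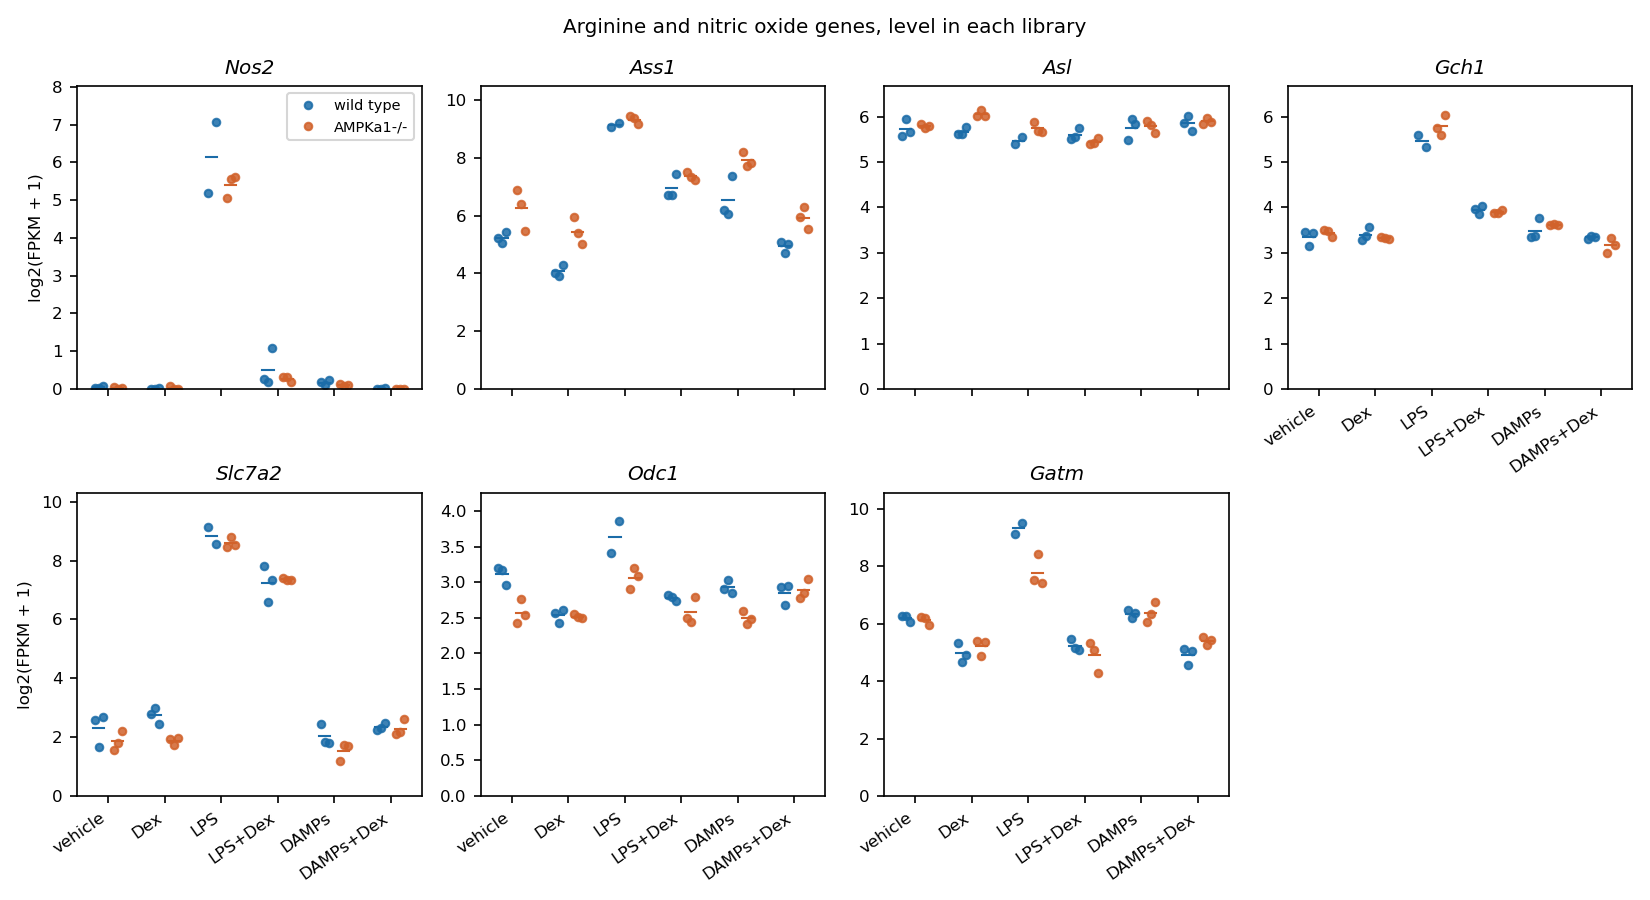
Level of each gene in every library, as log2(FPKM + 1), by treatment (x axis), for wild-type libraries and libraries labelled AMPKa1-/-. Points are libraries and bars are group means (3 libraries, 2 for wild-type LPS). In both genotypes Nos2 stands high with LPS and comes down with LPS + Dex, Slc7a2 stays high with LPS + Dex, and Asl is near the same level throughout.

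Of the 7 members tested, 6 rose with LPS in wild-type macrophages, where 19.9% of all genes tested were higher, and 6 rose in macrophages labelled AMPKa1-/-, where 20.2% were higher. The gene that did not rise in either was Asl. Nos2 entered the test only because it was high with LPS and had to differ, and of the 6 members that passed the filter without LPS, 5 rose in each genotype. Adding Dex to LPS lowered 6 of the 7 in wild type (17.5% of all genes were lower) and 7 of 7 in AMPKa1-/- (18.4%), or 5 of 6 and 6 of 6 without Nos2, whose fall the filter favoured in the same way. Both comparisons use the same LPS libraries, so a high LPS value raises the first and deepens the second.

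Nos2 (chr11:78920787-78960254, plus strand, GRCm38) encodes the inducible nitric oxide synthase. Its level was 0.0130, 0.0142 and 0.0597 FPKM in the wild-type vehicle libraries, where a single fragment on this gene was worth 0.00709 to 0.0143 FPKM over all libraries, so these are readings of a few fragments. With LPS it was 35.7 and 134 FPKM in wild type and 32.2, 46.0 and 48.3 FPKM in AMPKa1-/-. LPS + Dex left 0.195, 0.130 and 1.11 FPKM in wild type and 0.250, 0.234 and 0.142 FPKM in AMPKa1-/-. Every LPS library lay far above every other library, and every LPS + Dex library lay above every vehicle library of its genotype. The log2 difference between LPS and vehicle was 6.09 (SE 0.29, adjusted p = 4.3e-16) in wild type and 5.39 (SE 0.26, adjusted p = 3.9e-16) in AMPKa1-/-, the latter 8.49 with a pseudocount of 0.1. That between LPS + Dex and LPS was -5.63 (SE 0.29, adjusted p = 6.6e-15) and -5.14 (SE 0.26, adjusted p = 3.2e-15). LPS + Dex was not called against vehicle in wild type (0.46, adjusted p = 0.14) or AMPKa1-/- (0.25, adjusted p = 0.43), but with a pseudocount of 0.1 it was higher in both (1.77, adjusted p = 0.0019, and 1.39, adjusted p = 0.012), and in wild type it was also called with centred libraries (0.69, adjusted p = 0.048) and when either wild-type LPS library was left out (adjusted p = 0.016 for both). The SE is pooled over all 12 groups and does not follow the distance between the 2 wild-type LPS libraries.

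Outside LPS, Nos2 was low in all libraries, with some readings of 0. DAMPs gave 0.125, 0.0788 and 0.167 FPKM in wild type and 0.0925, 0.0462 and 0.0747 FPKM in AMPKa1-/-, above all vehicle libraries of the same genotype, but these differences were not called (0.13, adjusted p = 1, and 0.07, adjusted p = 0.95). With DAMPs + Dex the gene was listed at 0 in 5 of 6 libraries.

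Slc7a2 (chr8:40862396-40922308, plus strand) encodes the cationic amino acid transporter CAT2, through which arginine is taken up. It was at 5.04, 2.19 and 5.42 FPKM in wild-type vehicle libraries and at 562 and 375 FPKM with LPS. In AMPKa1-/- it went from 1.96, 2.45 and 3.62 FPKM to 354, 440 and 370 FPKM. The log2 differences, 6.53 (SE 0.29, adjusted p = 9.0e-17) and 6.75 (SE 0.26, adjusted p = 2.6e-18), were those of the largest size among the members at a pseudocount of 1. With LPS + Dex 222, 96.4 and 163 FPKM remained in wild type and 167, 161 and 163 FPKM in AMPKa1-/-. These lay below all LPS libraries and above all vehicle libraries. Dex thus lowered Slc7a2 by 1.59 (SE 0.29, adjusted p = 7.7e-05) and 1.23 (SE 0.26, adjusted p = 3.6e-04) on the log2 scale but left it 4.94 (SE 0.26) and 5.51 (SE 0.26) above vehicle. A long noncoding RNA on the opposite strand, Gm26584, overlaps the start of the gene at 0 to 3.07 FPKM, and the sources used here do not say whether fragments were counted by strand.

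Ass1 (chr2:31470207-31520672, plus strand) encodes argininosuccinate synthase, the first enzyme of citrulline recycling. Vehicle libraries had 36.5, 32.2 and 42.6 FPKM in wild type and 118, 83.8 and 43.2 FPKM in AMPKa1-/-. LPS raised these to 538 and 594 FPKM and to 695, 665 and 574 FPKM, a log2 difference of 3.90 (SE 0.34, adjusted p = 1.1e-10) and 3.07 (SE 0.30, adjusted p = 9.5e-10). LPS + Dex gave 103, 103 and 173 FPKM in wild type and 180, 161 and 151 FPKM in AMPKa1-/-, again between LPS and vehicle with no overlap. Dex lowered it under LPS by 2.19 (SE 0.34, adjusted p = 7.4e-06) and 1.97 (SE 0.30, adjusted p = 5.6e-06) on the log2 scale, to 1.71 (SE 0.30, adjusted p = 2.6e-05) and 1.11 (SE 0.30, adjusted p = 0.0028) above vehicle. Without AMPKa1-/- vehicle replicate 3, the lowest of its group, the last value was 0.71 (adjusted p = 0.048).

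Asl (chr5:130011258-130029247, minus strand), the lyase that completes this recycling, stayed between 40.9 and 69.8 FPKM in all 35 libraries. LPS against vehicle gave -0.25 (SE 0.13, adjusted p = 0.097) in wild type and -0.05 (SE 0.11, adjusted p = 0.71) in AMPKa1-/-. The wild-type difference was called with the replicate number as a block (-0.31, adjusted p = 0.036) and without wild-type vehicle replicate 1 (-0.33, adjusted p = 0.046). Under LPS, added Dex gave 0.12 (SE 0.13, adjusted p = 0.51) in wild type. In AMPKa1-/- the LPS + Dex libraries, at 40.9, 42.1 and 44.99 FPKM, lay just below LPS at 58.4, 50.8 and 49.7 FPKM, and this fall of 0.30 (SE 0.11, adjusted p = 0.036) was not called with centred libraries, that is, all shifted to a common median (adjusted p = 0.17), with quantile normalization (-0.18, adjusted p = 0.31), without the filter (adjusted p = 0.057) or in a fit of only the groups compared (adjusted p = 0.071), nor without AMPKa1-/- LPS replicate 1 (adjusted p = 0.17) or LPS + Dex replicate 1 or 2 (adjusted p = 0.11 and 0.084). Ass1, by comparison, spanned 14.0 to 695 FPKM.

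Gch1 (chr14:47153895-47189413, minus strand) encodes GTP cyclohydrolase 1, which sets the rate of tetrahydrobiopterin synthesis. Wild-type vehicle libraries had 9.97, 7.89 and 9.90 FPKM, LPS libraries 47.2 and 39.6 FPKM, and LPS + Dex libraries 14.5, 13.5 and 15.2 FPKM. In AMPKa1-/- the values were 10.4, 10.2 and 9.18 FPKM with vehicle, 53.2, 47.3 and 64.4 FPKM with LPS, and 13.7, 13.6 and 14.4 FPKM with LPS + Dex. The 3 conditions did not overlap in either genotype, and the replicates lay close together. LPS raised Gch1 by 2.12 (SE 0.13, adjusted p = 1.5e-13) and 2.35 (SE 0.12, adjusted p = 1.1e-15), Dex lowered it by 1.52 (SE 0.13, adjusted p = 4.7e-10) and 1.90 (SE 0.12, adjusted p = 3.4e-13) on the log2 scale, and LPS + Dex stayed 0.59 (SE 0.12, adjusted p = 1.3e-04) and 0.45 (SE 0.12, adjusted p = 0.0022) above vehicle. The last value was 0.74 with centred libraries and 0.76 with quantile normalization.

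Promoter sequences are shown for 2 members that rose with LPS and fell with Dex but stand at different levels with LPS + Dex, Gch1 above vehicle and Gatm below it. RefSeq windows were at hand for 4 of the 7 genes (Ass1, Gch1, Odc1 and Gatm; GRCm38.p6). Shown are the bases upstream of the annotated gene, 5′ to 3′ on the strand of the gene, for Gch1 chr14:47189414-47189663 and for Gatm chr2:122611304-122611527, both on the minus strand. Capitals mark matches, on either strand, to the letters searched.
Gch1: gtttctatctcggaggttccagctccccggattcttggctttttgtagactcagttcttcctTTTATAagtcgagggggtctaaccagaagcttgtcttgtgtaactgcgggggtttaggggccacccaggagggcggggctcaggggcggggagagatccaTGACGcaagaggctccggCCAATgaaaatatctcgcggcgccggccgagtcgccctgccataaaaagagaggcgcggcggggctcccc
Gatm: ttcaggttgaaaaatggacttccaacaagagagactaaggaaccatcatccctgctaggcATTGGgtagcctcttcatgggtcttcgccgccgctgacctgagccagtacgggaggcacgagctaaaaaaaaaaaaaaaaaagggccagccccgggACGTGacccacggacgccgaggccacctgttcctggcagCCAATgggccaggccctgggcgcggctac
The Gch1 window held the core of the cAMP response element, TGACG, which 17.8% of 32841 promoter windows of 250 bases held, a CCAAT box (CCAAT, 33.9%) and a TATA box on the opposite strand (TATAAA, 12.4%). The Gatm window held 2 CCAAT boxes, 1 on each strand (at least 1 in 31.5% of windows of 224 bases). It also held ACGTG, the letters searched for the core of the E-box and hypoxia response element (14.7%), but not TGACG. Neither held the letters searched for NF-κB (GGGNNTTTC, 3.72% of windows of 250 bases), AP-1 (TGANTCA, 6.75%), the interferon-γ activated site (TTCNNNGAA, 7.02%), the interferon-stimulated response element (GAAANNGAA, 7.13%) or the GC response element (ACANNNTGT, 5.84%), and the shorter windows of Ass1 and Odc1 held none of these 9 letter strings. Such matches describe the letters only.

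**Figure D2:**
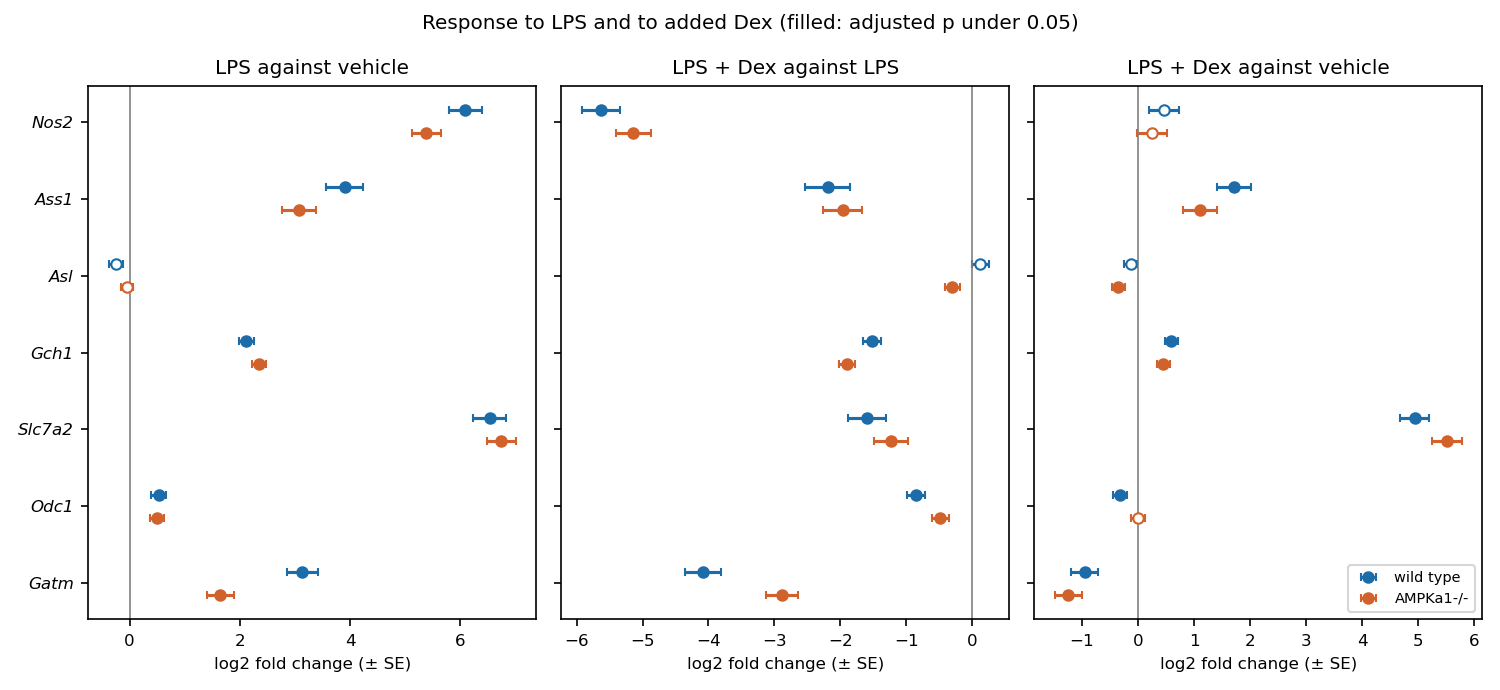
Log2 fold change ± SE (x axis) of each gene (y axis) for LPS against vehicle, LPS + Dex against LPS, and LPS + Dex against vehicle, in wild-type libraries and libraries labelled AMPKa1-/-; filled points had an adjusted p under 0.05. Slc7a2 stays 4.94 and 5.51 above vehicle with LPS + Dex, while Gatm falls to 0.95 and 1.24 below vehicle.

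Odc1 (chr12:17544794-17551505, plus strand) encodes ornithine decarboxylase, the entry to polyamine synthesis, and moved within a narrow range. Wild-type libraries had 8.16, 8.01 and 6.80 FPKM with vehicle, 9.64 and 13.6 FPKM with LPS, and 6.08, 5.91 and 5.65 FPKM with LPS + Dex. In AMPKa1-/- the values were 4.37, 5.77 and 4.81 FPKM with vehicle, 6.48, 8.18 and 7.50 FPKM with LPS, and 4.64, 4.44 and 5.93 FPKM with LPS + Dex. In both genotypes the LPS libraries lay above the vehicle and the LPS + Dex libraries. LPS raised Odc1 by 0.53 (SE 0.14, adjusted p = 0.0021) and 0.49 (SE 0.13, adjusted p = 0.0013), and Dex lowered it under LPS by 0.86 (SE 0.14, adjusted p = 1.7e-05) and 0.49 (SE 0.13, adjusted p = 0.0027). Without wild-type LPS replicate 3, the first value was 0.30 (adjusted p = 0.14). The AMPKa1-/- rise was 0.77 with centred libraries and 0.85 with quantile normalization, and the AMPKa1-/- fall was not called in a fit of only the groups compared (adjusted p = 0.056). The wild-type fall of LPS + Dex below vehicle, by 0.33 (SE 0.13, adjusted p = 0.029), became 0.10 (adjusted p = 0.57) with centred libraries and 0.04 (adjusted p = 0.82) with quantile normalization, and its call was lost in a fit of only the groups compared (adjusted p = 0.11) and without vehicle replicate 1 or 2 or LPS + Dex replicate 2 or 3 (adjusted p = 0.099, 0.082, 0.055 and 0.078).

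Gatm (chr2:122594467-122611303, minus strand) encodes glycine amidinotransferase, which makes the creatine precursor from arginine. It had 75.7, 75.4 and 65.5 FPKM in wild-type vehicle libraries, 561 and 731 FPKM with LPS, and 43.6, 34.7 and 33.0 FPKM with LPS + Dex. In AMPKa1-/- it had 75.3, 73.1 and 60.7 FPKM with vehicle, 183, 341 and 170 FPKM with LPS, and 39.1, 32.9 and 18.4 FPKM with LPS + Dex. With LPS + Dex the gene was lower than with vehicle, by 0.95 (SE 0.25, adjusted p = 0.0018) and 1.24 (SE 0.25, adjusted p = 9.5e-05). LPS raised it by 3.13 (SE 0.27, adjusted p = 1.3e-10) in wild type and 1.65 (SE 0.25, adjusted p = 1.4e-06) in AMPKa1-/-, and Dex lowered it under LPS by 4.09 (SE 0.27, adjusted p = 1.8e-12) and 2.89 (SE 0.25, adjusted p = 1.6e-10).

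Against vehicle, LPS + Dex left 3 of the 7 members tested higher and 2 lower in each genotype, where 17.2% and 37% of all genes were higher and lower in wild type and 16.7% and 40.8% in AMPKa1-/-. Ass1, Gch1 and Slc7a2 were higher in both genotypes and Gatm was lower in both. Odc1 was lower in wild type and Asl in AMPKa1-/- (0.35, adjusted p = 0.0094), and both calls were lost with centred libraries and with quantile normalization (for Asl -0.07, adjusted p = 0.76, and -0.18, adjusted p = 0.25). Saa3, an acute-phase gene, took 16% to 24.0% of the summed FPKM in the LPS + Dex libraries, both ends in wild type. It took 7.12% and 7.20% in the wild-type LPS libraries and at most 7.58% in those of AMPKa1-/-. FPKM values are shares of a library, which applies to LPS + Dex against LPS as well.

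Without LPS, Dex lowered a smaller set, 3 of 7 in wild type (14.9% of all genes were lower) and 2 of 7 in AMPKa1-/- (16%). Gatm went from the vehicle values above to 39.5, 24.5 and 29.1 FPKM in wild type (-1.22, SE 0.25, adjusted p = 3.9e-04) and to 41.4, 28.3 and 39.8 FPKM in AMPKa1-/- (-0.93, SE 0.25, adjusted p = 0.0051). Ass1 went to 15.2, 14.0 and 18.7 FPKM (-1.17, SE 0.30, adjusted p = 0.0043) and to 60.5, 40.9 and 31.5 FPKM (-0.80, SE 0.30, adjusted p = 0.048). The wild-type libraries did not overlap, whereas those labelled AMPKa1-/- did for Ass1. There each Dex library had less Ass1 than the vehicle library of the same replicate number, and same-numbered libraries deviated together in this comparison. The AMPKa1-/- call of Ass1 was lost when any 1 of 23 of the 35 libraries was left out (-0.48, adjusted p = 0.29, without AMPKa1-/- vehicle replicate 1). It was also lost without the filter (adjusted p = 0.11), with centred libraries (-0.72, adjusted p = 0.10) and in a fit of only the groups compared (adjusted p = 0.13). Odc1 fell in wild type, to 4.90, 4.39 and 5.11 FPKM (-0.58, SE 0.13, adjusted p = 8.5e-04), and had 4.87, 4.68 and 4.62 FPKM in AMPKa1-/- (-0.06, adjusted p = 0.78), close to its vehicle level there.

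DAMPs raised 1 of 7 members in each genotype, where 1.22% and 1.89% of all genes were higher. This was Ass1, at 72.0, 66.2 and 164 FPKM in wild type (1.30, SE 0.30, adjusted p = 0.020) and 298, 211 and 228 FPKM in AMPKa1-/- (1.67, SE 0.30, adjusted p = 0.0010). All DAMPs libraries lay above all vehicle libraries of their genotype. The wild-type call rested on its highest library and was lost without DAMPs replicate 3 (0.89, adjusted p = 0.32) and without any 1 of the vehicle replicates (adjusted p = 0.067, 0.082 and 0.051), and neither call held in a fit of only the groups compared (adjusted p = 0.33 and 0.052). Wild-type DAMPs replicate 3 also had the highest Tnf, Cxcl10 (5.97 against 1.90 and 1.23 FPKM), Ngp (0.604 against 0.312 and 0.225 FPKM) and Ltf of its group, and their part was not tested.

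Dex added to DAMPs lowered 2 of 7 members in wild type (12.6% of all genes) and 3 of 7 in AMPKa1-/- (12.2%). Ass1 came down to 33.2, 25.1 and 31.5 FPKM (-1.60, SE 0.30, adjusted p = 1.9e-04) and to 60.6, 77.2 and 45.9 FPKM (-2.0, SE 0.30, adjusted p = 9.7e-06), overlapping vehicle in both genotypes. Gatm came down from 87.7, 72.4 and 81.4 FPKM to 33.9, 22.8 and 32.4 FPKM in wild type (-1.42, SE 0.25, adjusted p = 5.6e-05), and from 66.6, 80.1 and 107 FPKM to 45.2, 37.8 and 42.1 FPKM in AMPKa1-/- (-0.98, SE 0.25, adjusted p = 0.0034). In AMPKa1-/- Gch1 fell as well (-0.45, SE 0.12, adjusted p = 0.0050), and 2 members rose, where 13.1% of all genes were higher: Slc7a2 (0.76, SE 0.26, adjusted p = 0.032) and Odc1 (0.40, SE 0.13, adjusted p = 0.020). The call of Gch1 was lost in a fit of only the groups compared (adjusted p = 0.051), as was that of Odc1 (adjusted p = 0.091), which was also lost with centred libraries (adjusted p = 0.081) and with quantile normalization (adjusted p = 0.063). The call of Slc7a2 was lost without the filter (adjusted p = 0.074) and without AMPKa1-/- DAMPs replicate 1 (adjusted p = 0.17) or DAMPs + Dex replicate 3 (adjusted p = 0.16), and that of Odc1 without AMPKa1-/- DAMPs replicate 2 (adjusted p = 0.083), DAMPs replicate 3 (adjusted p = 0.05) or DAMPs + Dex replicate 3 (adjusted p = 0.12).

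Against vehicle, DAMPs + Dex left 1 of 7 members changed in each genotype, where 13.9% of all genes were lower and 11% higher in wild type and 14.9% and 11.2% in AMPKa1-/-. This was Gatm, which was lower (-1.27, SE 0.25, adjusted p = 2.2e-04, and -0.72, SE 0.25, adjusted p = 0.028), and the AMPKa1-/- call was lost without the filter (adjusted p = 0.065) and without vehicle replicate 1 or 2 or DAMPs + Dex replicate 2 or 3 (adjusted p = 0.09, 0.083, 0.094 and 0.061). Without AMPKa1-/- DAMPs + Dex replicate 2, Gch1 was called lower there (-0.37, adjusted p = 0.042). Gatm was thus lower in each of the 3 comparisons of a Dex-containing culture with vehicle, in both genotypes, and these share their vehicle libraries.

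**Figure D3:**
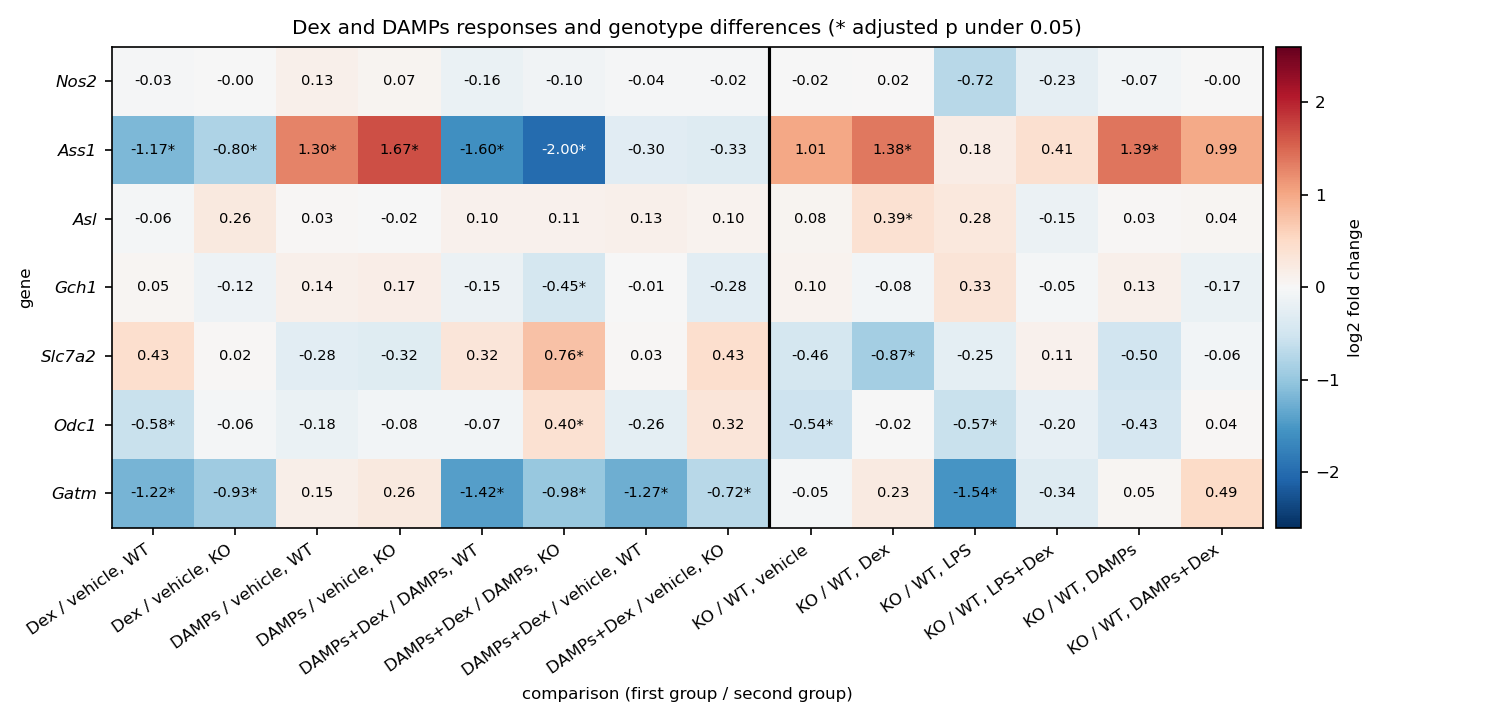
Log2 fold changes (color and printed values) of each gene (rows) for Dex, DAMPs and DAMPs + Dex within each genotype (left of the line) and for libraries labelled AMPKa1-/- (KO) against wild type (WT) in each treatment (right of it). Asterisks mark an adjusted p under 0.05. Ass1 and Gatm carry most of the changes with Dex and DAMPs.

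Comparing the genotypes within each treatment gave 7 calls among 42 tests of the 7 members. With Dex 2 were higher and 1 lower in AMPKa1-/-, with LPS 2 were lower, with vehicle 1 was lower and with DAMPs 1 was higher. In these treatments 26.5%, 0.766%, 0.432% and 0.731% of all genes were called, so the pooled count mixes unlike shares. Ass1 was higher in AMPKa1-/- with Dex (1.38, SE 0.30, adjusted p = 0.0050) and with DAMPs (1.39, SE 0.30, adjusted p = 0.023). The first stands against 26.5% of all genes called between the genotypes with Dex, a share that was 2.69% without wild-type Dex replicate 2 and 2.71% without AMPKa1-/- Dex replicate 2, and the second against 0.731% with DAMPs. The summed neutrophil markers given above were also higher in AMPKa1-/- with Dex and with DAMPs, and the fibroblast markers lower with Dex, and their part in these differences was not tested. With vehicle Ass1 was 1.01 higher (SE 0.30, adjusted p = 0.20) and with DAMPs + Dex 0.99 (SE 0.30, adjusted p = 0.14), without overlap between the genotypes in either. The neutrophil sum averaged 9.08 FPKM in AMPKa1-/- and 4.04 in wild type with vehicle, with overlap. With DAMPs + Dex it was 1.53 to 3.95 and 0.36 to 0.97 FPKM, and the fibroblast sum was lower in AMPKa1-/-. Within each AMPKa1-/- treatment group, Ass1 and Ngp had the same order of replicates. Ltf shared this order in all of these groups but DAMPs + Dex. With DAMPs, for example, Ngp had 5.85, 1.97 and 2.62 FPKM in AMPKa1-/- replicates 1 to 3. In wild type Ass1, Ngp and Ltf shared an order with DAMPs. Ass1 followed neither marker in wild-type vehicle, Dex, LPS + Dex or DAMPs + Dex libraries. The part of these markers was not tested. With LPS (0.18, adjusted p = 0.85) and LPS + Dex (0.41, adjusted p = 0.91) the genotypes overlapped for Ass1. The call with DAMPs was lost in a fit of only the groups compared (adjusted p = 0.37), without the filter (adjusted p = 0.051) and when any 1 of 5 libraries was left out, wild-type DAMPs replicates 1 and 2 or any of the 3 AMPKa1-/- DAMPs replicates (adjusted p = 0.15, 0.15, 0.15, 0.057 and 0.056), and the vehicle difference was called without AMPKa1-/- vehicle replicate 3 (1.41, adjusted p = 0.022).

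With LPS, Gatm was lower in AMPKa1-/- (-1.54, SE 0.27, adjusted p = 0.0044), and so was Odc1 (-0.57, SE 0.14, adjusted p = 0.046), where 0.766% of all genes were called. Both were lost without wild-type LPS replicate 3 (-1.35, adjusted p = 0.24, and -0.35, adjusted p = 0.59) (Odc1 was lost without any 1 of 23 libraries, this one included) and in a fit of only the LPS groups (adjusted p = 0.41 and 0.48). Nos2 was 0.72 lower (SE 0.29, adjusted p = 0.33), and without wild-type LPS replicate 2, the lower of the pair, that difference was -1.66 (adjusted p = 1.4e-04). Among the 3 LPS libraries labelled AMPKa1-/-, replicate 2 had the highest Gatm and the lowest Tnf (247 against 336 and 780 FPKM), Il6 (269 against 369 and 647 FPKM) and Cxcl10 (324 against 536 and 994 FPKM). Of the 2 wild-type LPS libraries, replicate 3 had both the higher Gatm and the higher Tnf (455 against 331 FPKM), Il6 (524 against 489 FPKM) and Cxcl10 (1302 against 813 FPKM). The summed fibroblast markers were lower in AMPKa1-/- with LPS, as given above, and their part was not tested.

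The remaining genotype calls were Odc1 lower with vehicle (-0.54, SE 0.13, adjusted p = 0.049; 0.432% of all genes called), and, with Dex, Asl higher (0.39, SE 0.11, adjusted p = 0.018) and Slc7a2 lower (-0.87, SE 0.26, adjusted p = 0.020), against the 26.5% of all genes called with Dex and the marker differences given above for that treatment. With LPS + Dex and with DAMPs + Dex no member was called by limma, with 0 and 1 at an unadjusted p under 0.05, where 0.669% and 1.06% of all genes were called. The calls of Odc1 with vehicle and of Asl and Slc7a2 with Dex were each lost when some single library was left out. For Odc1 with vehicle this held for 25 of the 35 libraries, and the Odc1 calls with vehicle and with LPS were also lost with centred libraries (adjusted p = 0.088 and 0.19), with quantile normalization (adjusted p = 0.061 and 0.29) and with a pseudocount of 0.1 (adjusted p = 0.06 for both). That with vehicle was lost as well in a fit of only the groups compared (adjusted p = 0.28) and with the filter at a mean FPKM of 5 (adjusted p = 0.07). The call of Asl was lost without wild-type Dex replicate 1 or 2 or AMPKa1-/- Dex replicate 2 (0.36, 0.37 and 0.35). That of Slc7a2 was lost without any 1 of the same 3 libraries (-0.85, -0.75 and -0.80). The differences thus stayed about as large, and without either replicate 2 the share of all genes called was 2.69% or 2.71%. The Slc7a2 call was also lost with quantile normalization (adjusted p = 0.055).

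Whether a response itself differed between genotypes was tested for Dex, LPS and DAMPs against vehicle and for Dex added to LPS and to DAMPs. No gene of the 11354 and no member was called by limma (0% of all genes in each), while at an unadjusted p under 0.05 there were 2441, 514, 66, 311 and 234 genes and 1, 1, 0, 3 and 1 members. The smallest p among the members was that of Gatm for LPS, whose log2 change was smaller in AMPKa1-/- (difference -1.49, SE 0.37, limma adjusted p = 0.31). For Gatm under LPS + Dex against LPS the difference was 1.20 (SE 0.37, adjusted p = 1). For Nos2 the difference in the LPS response was -0.71 (SE 0.39, adjusted p = 0.95), and -1.65 (adjusted p = 0.0059) without wild-type LPS replicate 2.

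Of 43 other genes of these pathways, listed by role, 31 passed the filter. With LPS, 7 of them rose and 18 fell in wild type (all genes 19.9% and 35.8%), and 6 rose and 17 fell in AMPKa1-/- (20.2% and 44.1%), with medians of -0.62 and -0.41 against -0.19 and -0.30 over all genes. LPS + Dex against LPS raised 9 and lowered 5 in wild type (16.6% and 17.5%) and raised 8 and lowered 6 in AMPKa1-/- (19.3% and 18.4%), with medians of 0.12 and 0.05 against -0.03 and 0.01. In both genotypes more of these genes fell than rose with LPS, as over all genes.

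Next to Gatm in creatine metabolism, the 3 genes tested fell with LPS in both genotypes, where 35.8% and 44.1% of all genes fell. Gamt, which methylates the product of Gatm to creatine, had 25.4, 39.4 and 31.9 FPKM in wild-type vehicle libraries, 3.66 and 2.96 FPKM with LPS, and 9.89, 14.7 and 11.8 FPKM with LPS + Dex. Ckb, brain-type creatine kinase, had 343, 465 and 308 FPKM, 18.7 and 28.5 FPKM, and 85.5, 160 and 93.6 FPKM in the same order. Both moved opposite to Gatm in each step without overlap (LPS -2.93, SE 0.22, and -3.93, SE 0.33; added Dex 1.60, SE 0.22, and 2.19, SE 0.33). Slc6a8, the creatine transporter, fell with LPS, though with overlap in AMPKa1-/-, and fell further with LPS + Dex, from 52.9 and 54.3 to 16.9, 10.3 and 15.6 FPKM (-1.87, SE 0.20, adjusted p = 1.9e-08), and in AMPKa1-/- by 2.07 (SE 0.18, adjusted p = 2.5e-10). Dex without LPS lowered Ckb as well (-1.86, SE 0.30, in wild type and -1.39, SE 0.30, in AMPKa1-/-), and so did DAMPs + Dex against DAMPs (-1.23, SE 0.30, and -1.55, SE 0.30).

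All 4 other genes of tetrahydrobiopterin metabolism tested, Pts, Spr, Qdpr and Gchfr, fell with LPS in both genotypes, where 35.8% and 44.1% of all genes fell. Ddah2, listed among the regulators of nitric oxide synthases, fell from 11.9, 12.6 and 8.65 to 1.29 and 1.61 FPKM in wild type (-2.29, SE 0.24, adjusted p = 3.2e-09) and by 2.51 (SE 0.21, adjusted p = 4.4e-11) in AMPKa1-/-. The other nitric oxide synthases, Nos1 and Nos3, did not reach 0.1 FPKM in any library. Of 4 other genes of arginine transport tested, 1 rose and 2 fell with LPS in wild type, and 1 rose and 1 fell in AMPKa1-/- (all genes 19.9% and 35.8%, and 20.2% and 44.1%). Those that fell were Slc7a7, a subunit of the y+LAT1 exchanger (-0.86, SE 0.18, and -1.01, SE 0.16), and, in wild type, its partner Slc3a2 (-0.62, SE 0.26, adjusted p = 0.046; AMPKa1-/- 0.03, adjusted p = 0.92). Slc7a6 rose, from 2.89, 2.33 and 1.91 to 7.98 and 6.25 FPKM (1.27, SE 0.15, adjusted p = 6.7e-08; AMPKa1-/- 1.17, SE 0.14). Slc7a1, the cationic transporter CAT1, fell with Dex under LPS (-0.77, SE 0.23, adjusted p = 0.0097; AMPKa1-/- -0.86, SE 0.21) and with DAMPs (-1.06, SE 0.21, and -0.98, SE 0.21).

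In polyamine metabolism 5 of 12 genes rose and 5 fell with LPS in wild type, and 4 rose and 5 fell in AMPKa1-/-, against 19.9% of all genes higher and 35.8% lower in wild type and 20.2% and 44.1% in AMPKa1-/-. Amd1, which supplies the aminopropyl donor, rose by 0.89 (SE 0.17) and 0.98 (SE 0.15), Azin1, an antizyme inhibitor that stabilizes ornithine decarboxylase, by 0.80 (SE 0.22) in wild type, and Srm, spermidine synthase, by 1.03 (SE 0.21) in AMPKa1-/-. Smox, spermine oxidase, fell with Dex under LPS from 95.3 and 84.4 to 45.3, 44.0 and 40.2 FPKM in wild type (-1.04, SE 0.18) and by 1.49 (SE 0.16) in AMPKa1-/-. Paox, which oxidizes acetylated polyamines, rose with the same step (1.22, SE 0.17, in wild type), as did Oaz2, an antizyme that leads ornithine decarboxylase to degradation (1.13, SE 0.13, in AMPKa1-/-). Between the genotypes, 4 of the 31 pathway genes were higher and 3 lower in AMPKa1-/- with Dex, where 26.5% of all genes were called (2.69% or 2.71% without 1 of the Dex libraries named above). With DAMPs 1 was higher (0.731% of all genes called), with DAMPs + Dex 1 was higher and 1 lower (1.06%), and with LPS + Dex 1 was lower (0.669%). Smox was the gene higher with Dex (0.83, SE 0.16), DAMPs (0.74, SE 0.16) and DAMPs + Dex (0.64, SE 0.16), along with Oaz1, Dohh and Spr with Dex (0.55, 0.44 and 0.40). Sms, spermine synthase, was lower with Dex (-0.38, SE 0.11) and DAMPs + Dex (-0.47, SE 0.11), Slc6a8 and Slc7a1 were lower with Dex (-0.78 and -0.63), and Prodh, proline dehydrogenase, was lower with LPS + Dex (-0.97, SE 0.23). In the urea cycle Cps1 and Otc, which lead to citrulline in the liver, and Nags, whose product activates the enzyme of Cps1, stayed below 0.04 FPKM, while Slc25a15, the mitochondrial ornithine carrier, fell with LPS in both genotypes.

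**Figure D4:**
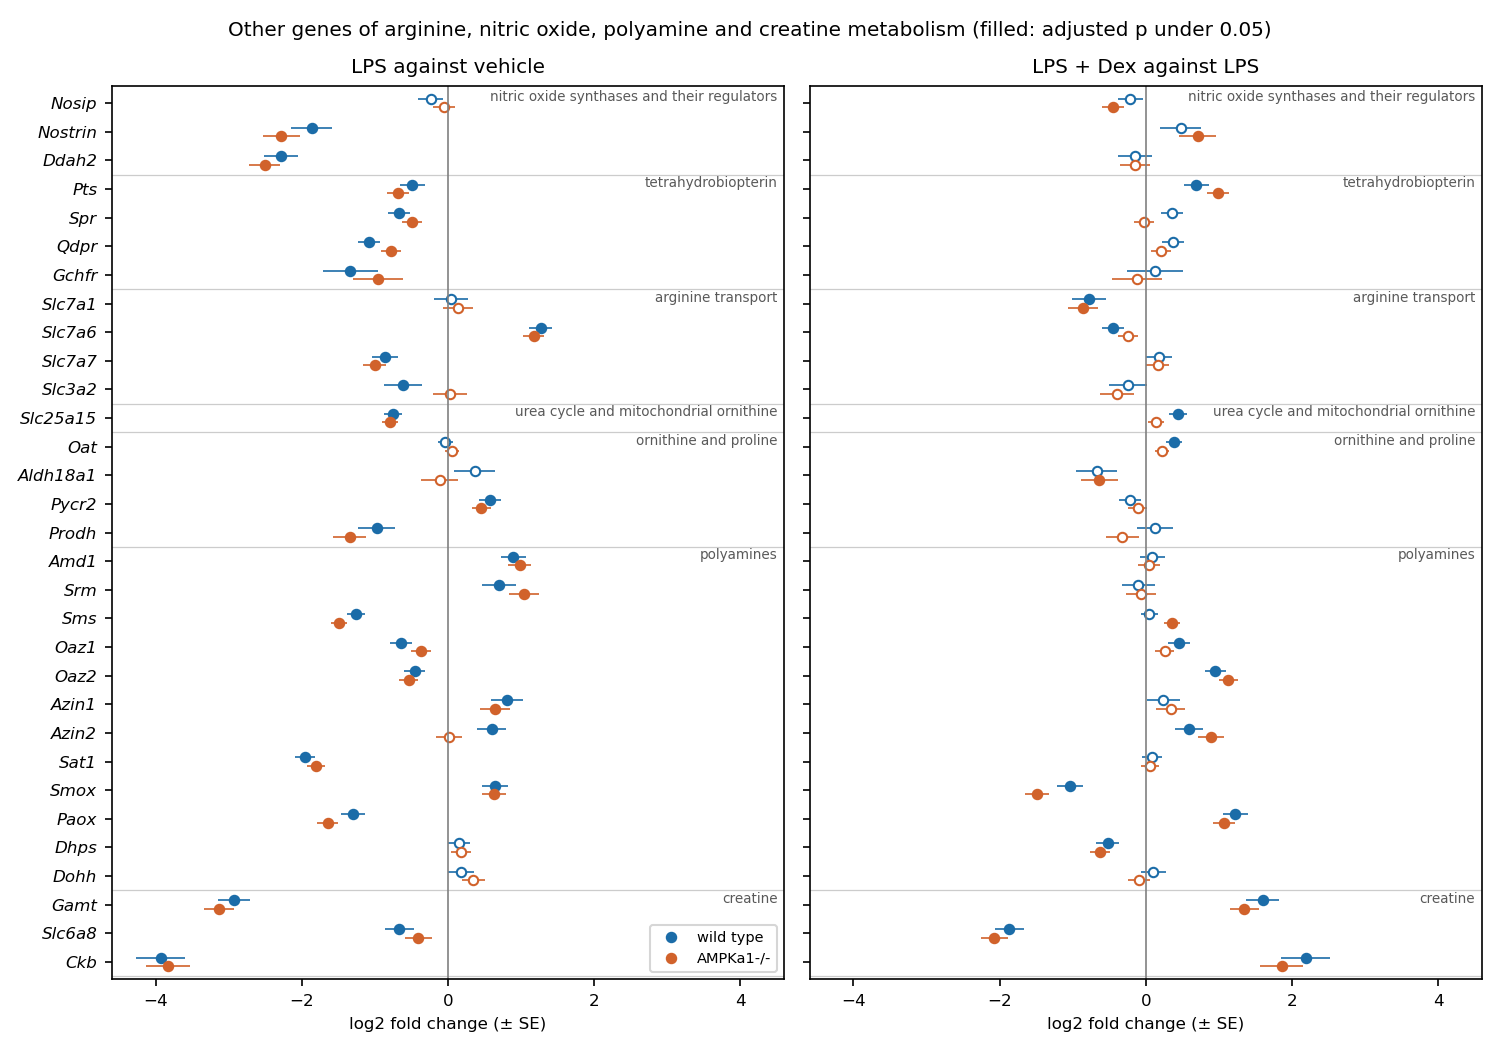
Log2 fold change ± SE (x axis) of the 31 other pathway genes tested (y axis, grouped by role) for LPS against vehicle and LPS + Dex against LPS, in wild-type libraries and libraries labelled AMPKa1-/-; filled points had an adjusted p under 0.05. With LPS 18 genes fell and 7 rose in wild type, and Gamt and Ckb fell with LPS and rose with added Dex.

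Across the 12 group means, the genes whose pattern was most like that of Nos2 were Il2ra, Cxcl11 and Sod3 (Pearson r of 0.998 for each), and those most like Gatm were Ch25h, Rsad2 and Kdr (r = 0.965, 0.964 and 0.961), among 2393 genes with a group-mean range of at least 2 on the log2 scale. The groups share the libraries' scaling. Nos2 passed the filter only through LPS, and its group means were at most 0.479 FPKM elsewhere. Any r with Nos2, that with Gch1 included, is therefore set largely by the LPS groups. Among the members themselves Nos2 and Gch1 were the most alike pair (r = 0.967), whereas Gatm and Slc7a2 were less alike (r = 0.499). The r of Asl with every other member was negative, between -0.711 and -0.314.

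By level, the LPS groups of both genotypes ranked above all other groups for Nos2, Ass1, Gch1, Slc7a2 and Gatm, with no overlap with the next group. The genotypes' LPS libraries overlapped for Nos2, Ass1 and Slc7a2 and not for Gatm and, narrowly, Gch1. Below LPS, the LPS + Dex groups came next for Nos2, Gch1 and Slc7a2, the Nos2 ranges of wild-type LPS + Dex, AMPKa1-/- LPS + Dex and the DAMPs groups overlapping each with the next. For Ass1 the next group was DAMPs in AMPKa1-/-, at 211 to 298 FPKM, above the LPS + Dex groups. For Gatm it was DAMPs and then vehicle, and the 6 groups with Dex took the last 6 places, from 41.7 down to 29.7 FPKM on average, with AMPKa1-/- DAMPs + Dex below AMPKa1-/- vehicle without overlap and neighbours overlapping thereafter.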

How the data were processed

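The authors deposited FPKM values for 35 libraries. The submitters' processing notes name TopHat2 (2.0.12), Bowtie2 (2.2.3), HTSeq (0.6.1) and DESeq2, and the builds GRCm38 and mm10, without roles. Symbols, positions and lengths came from GENCODE M21 (46488 identifiers matched). Relative depth was read from the steps of weak genes (55.1% to 63.4% of values under 10 fragments whole within 0.001), so no count test was run. No replicates shared identical values (r = 0.987 to 0.997).

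Values were log2(FPKM + 1). limma (3.58.1, R 4.3.3; trended empirical Bayes, 2-sided) was fitted on 12 groups together, with Python 3.11.15 for tables, and was tested on simulated data. Members and lists were chosen with earlier results of these data known. Some genes of the set are not reported here. Named are the other members, treatment and marker genes, the 3 largest called changes each way of the pathway list for LPS and LPS + Dex against LPS, the largest called change elsewhere, and the 3 genes most like Nos2 and Gatm; lists' complete role groups were named after their values were seen.

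The fit was repeated with a pseudocount of 0.1, without the filter, with a filter at a mean FPKM of 5, with centred libraries, with quantile normalization, on only the groups compared, with replicate blocks, and leaving out each library. Same-numbered libraries deviated together (each r over 0.1) in 5 of the 17 comparisons with 3 pairs and in 2 of the 3 with 2 pairs, which were not counted as paired.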

Additional observations from a re-analysis of the deposited data

Results flagged for a closer look

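For Odc1, DAMPs + Dex against vehicle moved all wild-type libraries down (5.39, 6.66 and 6.72 FPKM against 6.80 or more) and all AMPKa1-/- libraries up (5.83 or more against 5.77 or less). It was flagged for these opposite directions. The difference of the changes was 0.57 (SE 0.18, unadjusted p = 0.0032, adjusted p = 1), in a test added after the values were seen, and neither change was called within its genotype (-0.26, adjusted p = 0.15, and 0.32, adjusted p = 0.062). The AMPKa1-/- change was called with quantile normalization (0.38, adjusted p = 0.046), without wild-type LPS replicate 2 or 3 (adjusted p = 0.046 for both) and without AMPKa1-/- vehicle replicate 2 (0.41, adjusted p = 0.032).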

How the results depend on the processing

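No member changed direction in a call under any alternative. The counts of members called that moved by over 1.5 times were as follows. With only the groups compared, DAMPs against vehicle gave 0 in wild type and 0 in AMPKa1-/- (from 1 each), Dex against vehicle in AMPKa1-/- 1 (from 2), DAMPs + Dex against DAMPs in AMPKa1-/- 3 (from 5), and the genotype comparisons 3 (from 7). Over all genes these fits called 0, 274, 3205, 2244 and 2818 in that order. The first of these had 138 genes higher and 90 lower in the fit of all groups. The genotype comparisons gave 4 with quantile normalization (3654 over all genes). Dex against vehicle in AMPKa1-/- gave 1 without the filter (3353 over all genes) and 1 with centred libraries (3344). DAMPs + Dex against vehicle in AMPKa1-/- gave 0 without the filter (3240 over all genes) and 2 with quantile normalization (3435), from 1.

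Leaving out each of the 35 libraries in turn gave 0 to 1 members for DAMPs against vehicle in wild type, 1 to 2 for Dex against vehicle in AMPKa1-/-, 0 to 2 and 3 to 5 for DAMPs + Dex against vehicle and DAMPs there, 3 to 8 for the genotype comparisons and 0 to 1 for the differences of responses. The genotype comparisons gave 3 without wild-type Dex replicate 1 or 2 or AMPKa1-/- Dex replicate 2. In these fits 2049, 701 and 723 calls were made over all genes and treatments. DAMPs against vehicle in wild type gave 0 in fits that called 27 to 164 of all genes. For LPS + Dex against vehicle in wild type the count was 4 to 6. The members' LPS counts stayed within 5 to 7 in wild type and at 6 in AMPKa1-/-, and LPS + Dex against LPS at 6 and within 6 to 7.

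The replicate number as a block kept the counts within 1.5 times. It added Asl for LPS in wild type (-0.31, adjusted p = 0.036) and removed Odc1 between genotypes with LPS (-0.57, adjusted p = 0.061), and changed no other member's call. Centring and quantile normalization removed the Asl and Odc1 calls named with these genes above, while quantile normalization added Odc1 in AMPKa1-/- for LPS + Dex (0.39, adjusted p = 0.026) and DAMPs + Dex (0.38, adjusted p = 0.046) against vehicle. A pseudocount of 0.1 raised the LPS response of Nos2 in AMPKa1-/- from 5.39 to 8.49. The causes were not tested. FPKM without counts limits the precision of values near 0.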
